A study of Mus musculus with 20 samples.

Results

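RNA-seq of laser captured arcuate nuclei (ARC) was used to follow 10 genes of the neuronal cytoskeleton through short and long corticosterone (Cort) exposure. They are the neuronal intermediate filament genes Ina (α-internexin), Nefl, Nefm, Nefh and Prph, the tubulin gene Tubb3, the microtubule-associated protein genes Map2, Mapt and Map1b, and the stathmin gene Stmn2. These are 10 of the 22048 genes counted. The set was chosen from these same data because Ina was higher with Cort at 4 weeks and not at 2 days, and the other 9 genes were added as its family and its neighbours in the cytoskeleton. The Ina values, and the values of all 10 genes for Cort against vehicle at 4 weeks, are therefore given as a description, without a test.

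All mice were male C57BL6/J, with an age of 10 weeks in the labels, and drank either vehicle (1% ethanol) or Cort at 75 μg/ml in 1% ethanol. The 2 day mice were killed straight after treatment, whereas the 4 week mice went through a 16 h fast and 24 h of refeeding first. Each of the 4 groups held 5 samples, of which the study kept 3 vehicle and 4 Cort samples per time point after principal component analysis. Among the 2 day samples it left out vehicle C07, vehicle C09 and Cort C08, and among the 4 week samples vehicle C01, vehicle C05 and Cort C06. The time points also differed in section thickness, slide type, laser system and sequencer, so a difference between them cannot be told apart from a difference in handling, feeding state or age. Nothing in the sources ties a sample to more than 1 mouse or 1 mouse to more than 1 sample, so the p-values measure the spread between these samples.

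Intermediate filaments give axons their calibre and mechanical strength. In mature central neurons the neurofilament light, medium and heavy chains co-assemble with α-internexin, and peripherin is a further partner that is best known from peripheral neurons and is also made by some central neurons. Microtubules built from tubulin run alongside these filaments, with MAP2 mainly in dendrites, tau (Mapt) mainly in axons, and MAP1B and stathmin-2 prominent in growing neurites. Glucocorticoids act on neurons through nuclear receptors that bind DNA and change transcription.

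Total counts per sample were 2487063 to 5748223 at 2 days and 1065776 to 5196364 at 4 weeks. The ARC label was checked against markers. The 10 genes of the arcuate neuron list summed to 1112 to 3772 CPM (counts relative to library size, scaled over all samples by TMM) in the 20 samples, whereas the 5 genes of the ventromedial hypothalamus list summed to 1.29 to 93.4 CPM. All 16 neuron markers exceeded 3 counts in every sample.

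The sequences upstream of 3 members are shown because Ina, Map2 and Prph are the members whose vehicle levels did not overlap between 2 days and 4 weeks. Each is the 250 bases before the gene's RefSeq start in GRCm38.p6, written 5′ to 3′ on the gene's strand, which is the plus strand for all 3. Capitals mark a GC box (GGGCGG, or CCGCCC where it lies on the other strand) or a TATA box (TATAAA). The Ina window is chr19:47014431-47014680, the Map2 window chr1:66175079-66175328 and the Prph window chr15:99054924-99055173.
Ina: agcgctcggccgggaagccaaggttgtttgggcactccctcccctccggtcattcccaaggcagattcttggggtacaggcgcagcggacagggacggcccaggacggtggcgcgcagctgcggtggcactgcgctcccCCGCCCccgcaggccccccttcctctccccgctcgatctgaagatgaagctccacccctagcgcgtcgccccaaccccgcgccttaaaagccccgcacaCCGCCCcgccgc
Map2: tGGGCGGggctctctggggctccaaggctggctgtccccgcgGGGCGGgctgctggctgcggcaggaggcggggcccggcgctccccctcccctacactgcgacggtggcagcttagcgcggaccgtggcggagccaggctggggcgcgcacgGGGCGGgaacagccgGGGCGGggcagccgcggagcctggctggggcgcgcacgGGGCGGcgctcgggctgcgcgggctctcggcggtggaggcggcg
Prph: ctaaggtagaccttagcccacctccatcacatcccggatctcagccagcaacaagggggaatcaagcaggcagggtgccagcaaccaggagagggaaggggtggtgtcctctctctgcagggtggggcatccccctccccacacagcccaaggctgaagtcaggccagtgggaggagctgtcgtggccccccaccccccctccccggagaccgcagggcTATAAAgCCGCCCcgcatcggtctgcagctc
The Ina window held 2 GC boxes, starting 111 and 12 bases before the start, and no TATA box. The Prph window paired a TATA box at 31 bases with a GC box at 24 bases, and the Map2 window held 5 GC boxes. A GC box occurred in 32.7% of 32851 promoter windows and a TATA box, searched on the gene's strand only, in 7.59%. The glucocorticoid receptor half-site AGAACA, searched on both strands, was in 16.1% of the windows and in none of these 3, nor in those of Tubb3 and Map1b. The full palindromic site, in which this half-site faces its reverse complement across 3 bases, was in 3 of the 32851 windows. The GC content was 70.8% for Ina, 81.2% for Map2 and 65.2% for Prph, beside a median of 52.4% over all windows. RefSeq windows were at hand for 5 of the 10 members.

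Ina was the one member whose samples parted with Cort. The gene (ENSMUSG00000034336, GRCm38 chromosome 19, 47014698 to 47025327, plus strand) encodes α-internexin. At 2 days it stood at 153, 198 and 232 CPM in the vehicle samples kept and at 191, 168, 240 and 185 CPM in the Cort samples kept. At 4 weeks it stood at 72.1, 55.9 and 72.3 CPM with vehicle and at 367, 406, 191 and 240 CPM with Cort. Thus the groups overlapped fully at 2 days, and at 4 weeks the lowest Cort sample lay above the highest vehicle sample.

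The left out samples showed the same pattern. They belong to the data from which Ina was chosen, so their values are a description too and no further check. At 4 weeks they held 24.2 and 107 CPM with vehicle and 189 CPM with Cort, so the 5 vehicle samples (24.2 to 107 CPM) and the 5 Cort samples (189 to 406 CPM) did not overlap. At 2 days the vehicle samples left out held 221 and 210 CPM and the Cort sample 214 CPM, inside the range of the others. The 4 week groups also stayed apart with median-ratio scaling, at 26.8 to 113 CPM against 193 to 398 CPM, and with upper quartile scaling, at 25.2 to 103 CPM against 180 to 390 CPM.

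**Figure D1:**
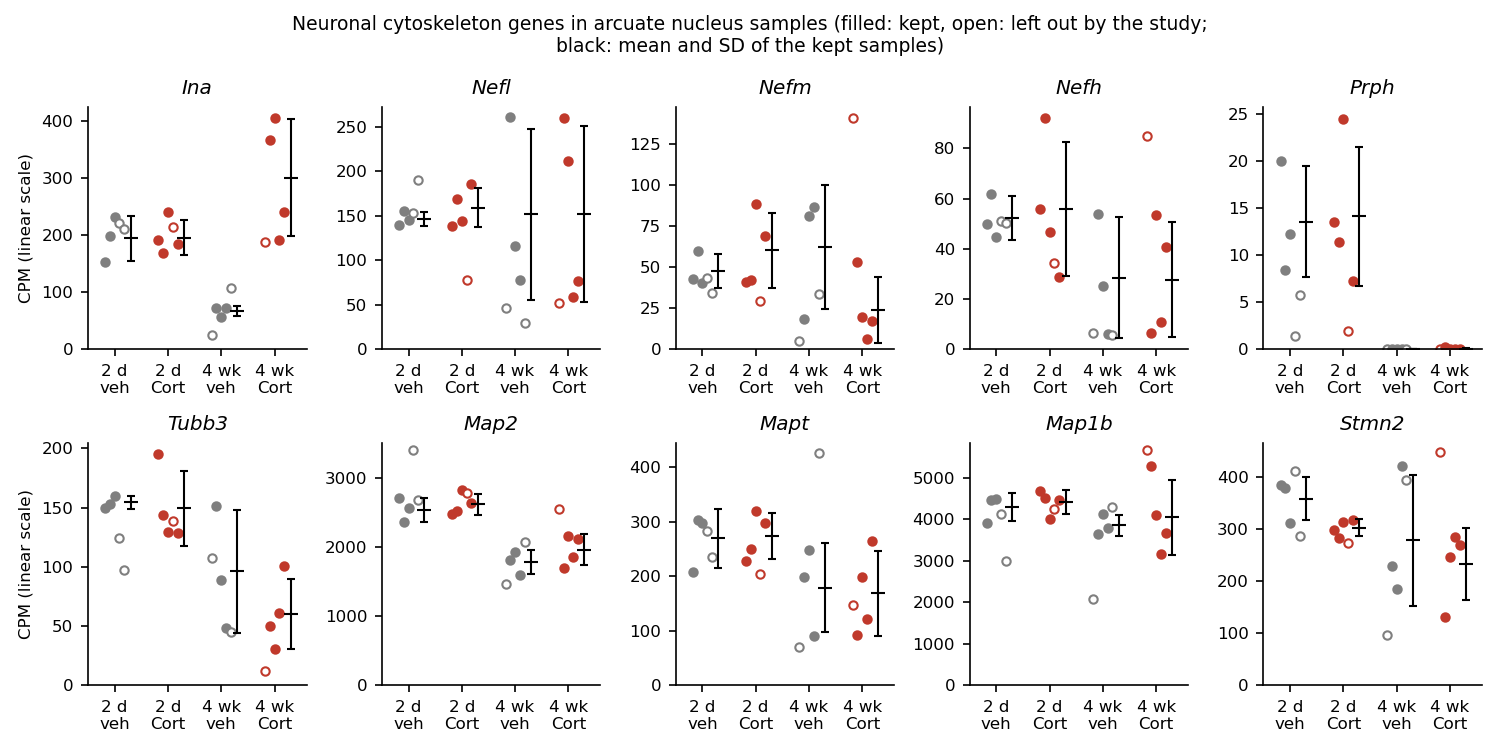
Level of each of the 10 genes in every sample, in CPM on a linear axis from 0, by time point (2 d, 4 wk) and treatment (grey vehicle, red Cort). Filled points are samples the study kept, open points those it left out, and black marks show mean and SD of the kept samples. Ina separates at 4 weeks with 24.2 to 107 CPM against 189 to 406 CPM, and Prph lies at or near 0 in all 4 week samples.

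By group means of the samples kept, the order was 4 week Cort (301 ± 102 CPM, SD, n = 4), 2 day Cort (196 ± 30.9 CPM, n = 4), 2 day vehicle (194 ± 39.5 CPM, n = 3) and 4 week vehicle (66.7 ± 9.41 CPM, n = 3). The ranges of the first 3 overlapped one another. The 4 week vehicle group stood alone below all other samples, and the 4 week Cort samples reached from within the 2 day range to above it. The separation at 4 weeks therefore lay between a vehicle group below the 2 day level and a Cort group at or above it.

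The fitted log2 fold change of Ina with Cort was 0.02 (SE 0.18) at 2 days and 2.16 (SE 0.36) at 4 weeks, a ratio of 4.48 in the fit. With all 10 samples the 4 week value was 2.04 (SE 0.40), and leaving out each kept sample in turn gave 1.99 to 2.33. In vehicle mice Ina was lower at 4 weeks than at 2 days by a fitted log2 difference of -1.49 (SE 0.27), or -1.56 (SE 0.33) with all samples. These 3 values restate the pattern for which the set was chosen.

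At 4 weeks, 1 of the 9 members tested, Ina, had non-overlapping groups, both over the samples kept and over all samples, beside 6.54% and 0.971% of all genes tested. By edgeR's quasi-likelihood test with Benjamini-Hochberg adjustment 0.0446% of 11211 genes had Padj below 0.1 in the samples kept, and by DESeq2 0.637% did. Since the choice of genes used this contrast, nothing is read from these shares.

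The depth and the cellular makeup of the samples moved to some degree with Ina. The Ina counts behind the 4 week values were 26 to 246 in the vehicle samples and 357 to 1708 in the Cort samples, and total counts were 1065776 to 2794561 with vehicle and 1837715 to 5196364 with Cort. The 16 neuron markers summed to 6912 to 7046 CPM in the kept vehicle samples and to 6789 to 9024 CPM in the kept Cort samples. Ina per 1000 CPM of this list was 4.94 to 12.6 in all 5 vehicle samples and 20.7 to 48.7 in all 5 Cort samples at 4 weeks, against 16.3 to 27.7 in the 10 samples at 2 days.

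Ina relative to the neuron markers did not overlap between the 4 week groups, a description that rests on the Ina values used in the choice. The 10 astrocyte markers summed to 3016 to 3182 CPM with vehicle and 3379 to 4569 CPM with Cort in the 4 week samples kept, and overlapped over all samples at 2003 to 4258 CPM against 3379 to 4799 CPM. The 10 endothelial and mural markers summed to 303 to 650 CPM with vehicle and 402 to 811 CPM with Cort in the samples kept, and 8 of the 9 tested had positive log2 fold changes, with a median of 1.46 and 0 with Padj below 0.1 by edgeR. The sum of the 10 arcuate neuron markers was 1912 to 2670 CPM with vehicle and 1310 to 2266 CPM with Cort, and 1 of the 9 tested, Npy, was lower by the test. The part of these differences in the Ina values was not tested. In bulk tissue, fewer cells of a type and less RNA per cell cannot be told apart.

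**Figure D2:**
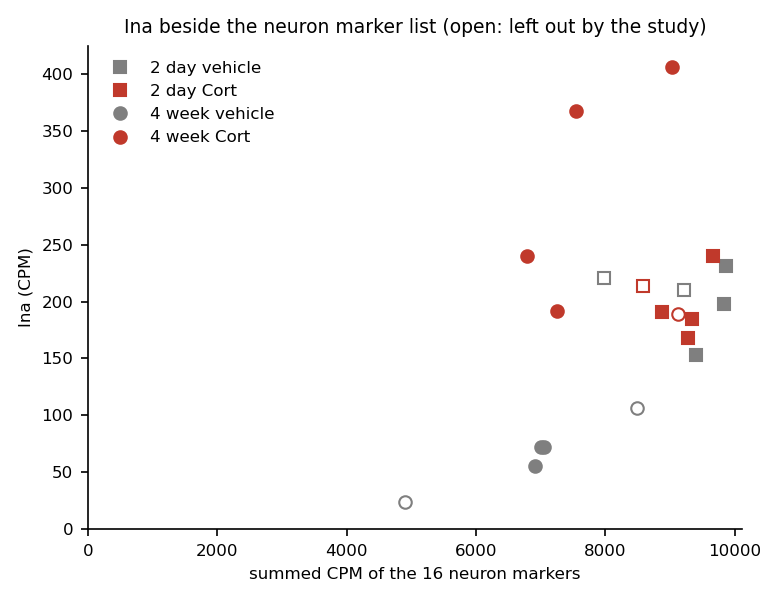
Ina in CPM (vertical) against the summed CPM of the 16 neuron markers (horizontal) in the 20 samples, squares for 2 days and circles for 4 weeks, grey for vehicle and red for Cort, open for samples left out. The 4 week vehicle samples lie lowest, and the 4 week Cort samples hold 20.7 to 48.7 CPM of Ina per 1000 CPM of neuron markers.

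Reads of Ina may be shared with a neighbour. Of the exon bases of Ina, 14.1% overlap Nt5c2, a nucleotidase gene on the other strand, and the strand setting of the counting was not given in the sources used here. Nt5c2 stood at 38.7 to 115 CPM in the 4 week vehicle samples and 6.19 to 116 CPM in the Cort samples, which overlapped. Its log2 fold change at 4 weeks was -0.27 (SE 0.54).

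The vehicle and Cort samples of the neurofilament triplet overlapped at 4 weeks. Nefl, the light chain on which the filament core is built, held 260, 212, 59.0 and 76.7 CPM in the kept 4 week Cort samples and 261, 116 and 77.9 CPM in the vehicle samples. Its log2 fold change was -0.01 (SE 0.53), or 0.29 (SE 0.57) with all samples. Both groups covered nearly the same range.

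Nefm, the medium chain, leaned the other way from Ina in the samples kept. It held 53.1, 19.5, 5.90 and 16.9 CPM with Cort and 18.4, 81.3 and 86.4 CPM with vehicle, a log2 fold change of -1.38 (SE 0.80). This rested on the choice of samples. Those left out held 141 CPM with Cort and 4.66 and 33.9 CPM with vehicle, and over all samples the value was 0.07 (SE 0.84). The groups overlapped in both cases.

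Nefh encodes the heavy chain, whose long phosphorylated tail spaces filaments apart. It held 6.24, 53.4, 10.7 and 40.6 CPM with Cort and 54.0, 25 and 6.14 CPM with vehicle in the 4 week samples kept. The log2 fold change was -0.05 (SE 0.95), and it was 1.00 (SE 0.90) with all samples, as the left out samples held 85.1 CPM with Cort and 6.52 and 5.64 CPM with vehicle. In the samples kept both treatments reached nearly the same lowest and highest levels, and over all samples the highest was the Cort sample left out.

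The microtubule genes showed no parting of the groups at 4 weeks either. Tubb3, the neuronal β-tubulin, held 49.7, 30.4, 60.6 and 101 CPM with Cort and 151, 88.8 and 48.2 CPM with vehicle, with 11.7 CPM in the Cort sample left out. Its log2 fold change was -0.68 (SE 0.55), or -0.83 (SE 0.58) with all samples. Over all samples, 2 Cort samples lay below every vehicle sample and the others lay among them.

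Of the proteins that bind microtubules, Map2 had a log2 fold change of 0.13 (SE 0.15), Map1b of 0.06 (SE 0.15) and Mapt of -0.10 (SE 0.43). Stmn2, which binds free tubulin and takes part in axon growth and repair, had a value of -0.26 (SE 0.35). Over the 8 members other than Ina that were tested at 4 weeks, the median was -0.07, beside 0.04 over all genes tested. With all samples it was 0.14, beside 0.01.

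**Figure D3:**
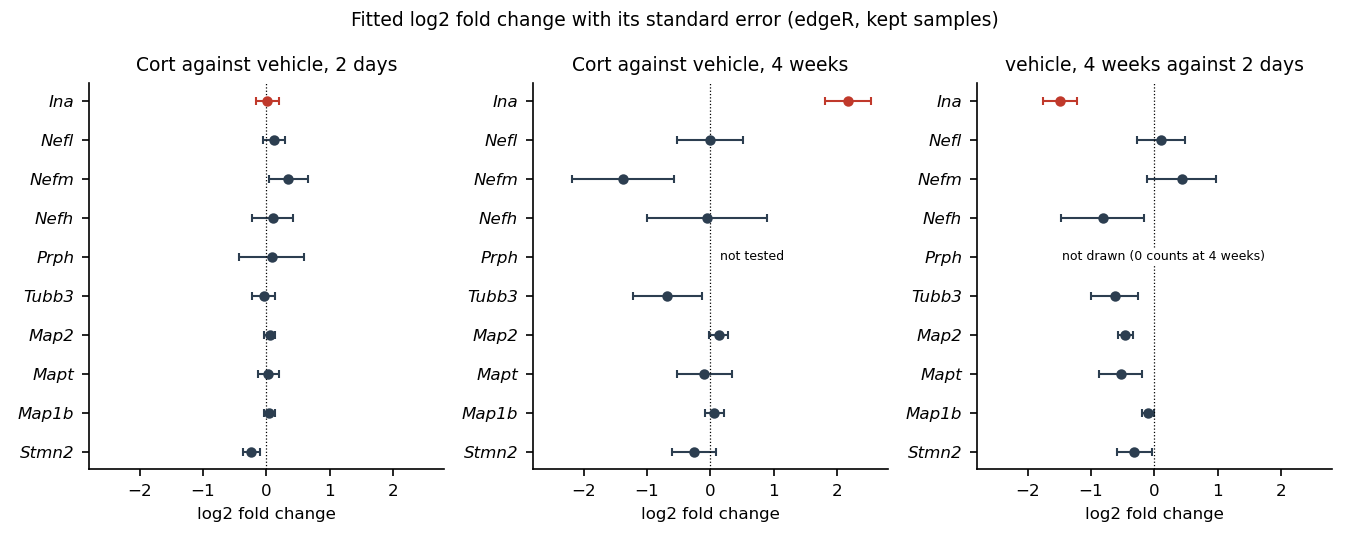
Fitted log2 fold change of each gene with its standard error, from the samples kept, for Cort against vehicle at 2 days (left) and 4 weeks (middle) and for 4 weeks against 2 days in vehicle mice (right). Ina sits at 0.02, 2.16 and -1.49 in the 3 panels, and the other points lie within 1.38 of zero. Prph did not pass the filter at 4 weeks and is not drawn where one side held no counts.

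At 2 days none of the other members passed the test of Cort against vehicle. By edgeR's quasi-likelihood test, 0 of 9 members had Padj below 0.1, and 0 of 9 had an unadjusted P below 0.05, beside 0.065% and 5.97% of 12309 genes. DESeq2 gave 0 of 9 by both measures, beside 0.385% and 6.18% of genes, and edgeR gave 0 of 9 over all samples, beside 0.0167%. The log2 fold changes ran from -0.24 to 0.34, with a median of 0.05 beside 0.02 over all genes tested.

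Stmn2 and Nefm marked the ends of this range. Stmn2 stood at 385, 379 and 311 CPM with vehicle and at 299, 282, 313 and 316 CPM with Cort, a log2 fold change of -0.24 (SE 0.13, Padj = 0.865 by edgeR). Nefm stood at 42.6, 59.9 and 40.3 CPM with vehicle and at 40.8, 42.2, 88.5 and 69.0 CPM with Cort, a value of 0.34 (SE 0.31, Padj = 0.933 by edgeR). In both genes the groups overlapped.

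Map2 (0.05, SE 0.09) and Map1b (0.05, SE 0.08) had the smallest standard errors at 2 days. Map1b ranged from 3895 to 4677 CPM and Map2 from 2352 to 2815 CPM over the 7 samples kept. Nefl had a log2 fold change of 0.12 (SE 0.17), Nefh of 0.10 (SE 0.32), Tubb3 of -0.04 (SE 0.18) and Mapt of 0.03 (SE 0.17). Prph, at 7.21 to 24.5 CPM in the samples kept, had a value of 0.08 (SE 0.52).

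Levels were compared between genes per kb of annotated exons, a scale that takes no account of which isoform was made. In the kept 2 day vehicle samples Map1b led with 270 ± 21.3 CPM per kb, followed by Map2 with 154 ± 10.7 and Tubb3 with 82.7 ± 2.83 (SD, n = 3). Stmn2 (64.0 ± 7.34), Ina (59.97 ± 12.2) and Nefl (43.3 ± 2.32) came next. Mapt stood at 35.7 ± 7.17, and Nefh (13.1 ± 2.19), Nefm (8.23 ± 1.84) and Prph (6.78 ± 2.95) were the lowest. Among neighbours in this order the samples overlapped for Stmn2 and Ina and for Nefm and Prph.

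Within the intermediate filament family, Ina had the highest CPM per kb of annotated exons in 10 of 10 samples at 2 days. Its place above Nefl depended on the exon length used, as 14.1% of the exon bases of Ina and 32.8% of those of Nefl overlap another gene on the other strand. With these bases left out of both lengths, as if no read there had been counted, Ina was above Nefl in 6 of 10 samples, a setting chosen after seeing the data. On all exon bases it made up 37.6% to 63.7% of the summed CPM per kb of Ina, Nefl, Nefm, Nefh and Prph over the 10 samples, and Nefl made up 22.2% to 40.8%. At 4 weeks the Ina share was 36.1%, 24.0% and 19.2% in the vehicle samples kept and 56.4%, 61.2%, 73.6% and 67.4% in the Cort samples kept. The samples left out broke this separation, since the Ina share of vehicle sample C05 was 67.5%, with 31.5% in vehicle C01 and 48.9% in Cort C06.

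The sum of the other 4 filament genes did not part with treatment. It was 62.7 ± 28.0 CPM per kb with vehicle (SD, n = 3) and 56.0 ± 32.5 with Cort (n = 4) at 4 weeks, and 71.4 ± 4.43 and 78.5 ± 7.44 at 2 days. At 4 weeks the means lay closer together than either SD. At 2 days the Cort mean was higher by more than the vehicle SD and by less than the Cort SD, and the samples overlapped, at 67.1 to 76.0 with vehicle and 68.6 to 86.1 with Cort.

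**Figure D4:**
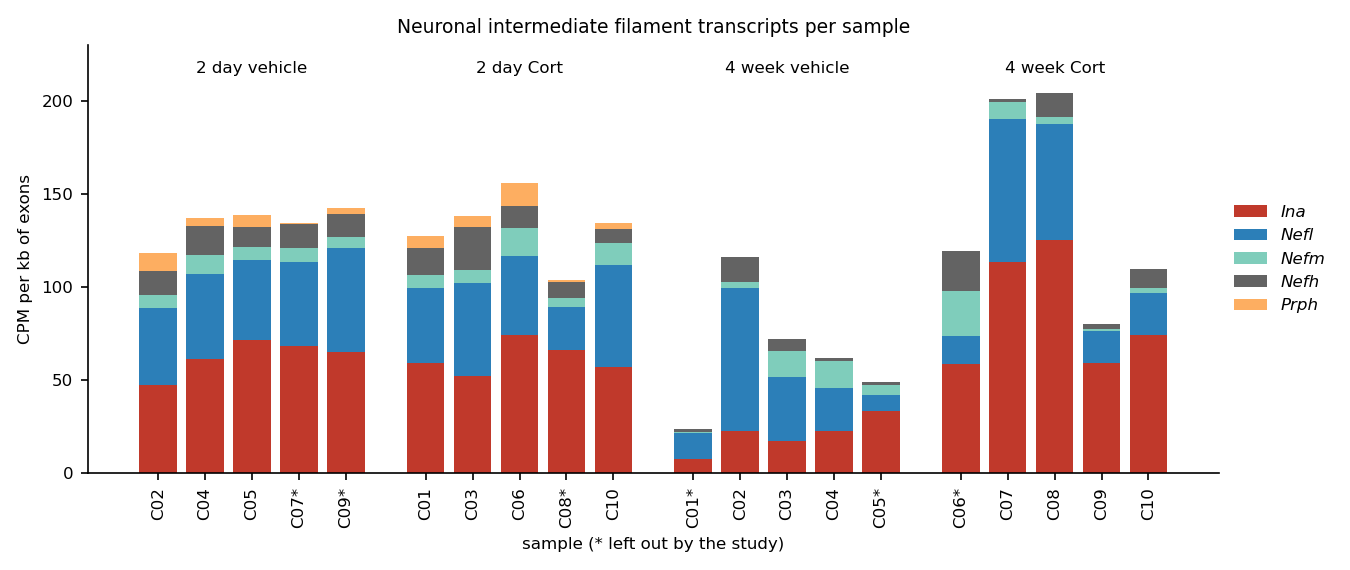
Stacked levels of the 5 intermediate filament genes in every sample, in CPM per kb of exons on a linear axis from 0, with samples the study left out marked by a star. The Ina segment (red, bottom) is short in the 4 week vehicle samples, at 7.48 to 33.0 CPM per kb, and tall in the 4 week Cort samples, at 58.2 to 125 CPM per kb, and the other segments vary widely between samples at 4 weeks.

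This spread set how finely the members could be compared. The SD of log2 CPM within groups, over the samples kept, was 0.16 at 2 days and 0.99 at 4 weeks for Nefl, 0.46 and 1.25 for Nefm, and 0.55 and 1.48 for Nefh. The median over genes of at least 10 CPM was 0.37 and 0.84, so the whole 4 week dataset was more variable. Of those genes, 80.2% varied less than Nefh at 4 weeks, 72.5% less than Nefm and 59.8% less than Nefl.

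Map2 and Map1b varied less than most genes at both time points, and so did Ina. Ina was chosen for its difference at 4 weeks, which favours a small spread within the groups there. Nothing is therefore read from its rank at 4 weeks. The SD of Ina was 0.25 at 2 days and 0.42 at 4 weeks, with 15.1% of genes varying less at 4 weeks, and over all samples it was 0.67 at 4 weeks, with 23.3% varying less. Map2 was among the most even genes of the dataset, with an SD of 0.09 at 2 days and 0.16 at 4 weeks, less than which 0.596% of genes varied at 4 weeks. Map1b had an SD of 0.10 and 0.25. Mapt lay nearer to the middle at 4 weeks, with an SD of 0.26 at 2 days and 0.72 at 4 weeks, less than which 41.1% of genes varied. These ranks were not matched for level. Map1b and Map2 had the highest CPM of the members and Nefm and Nefh were among the lowest, and the part of level in the spread was not tested.

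**Figure D5:**
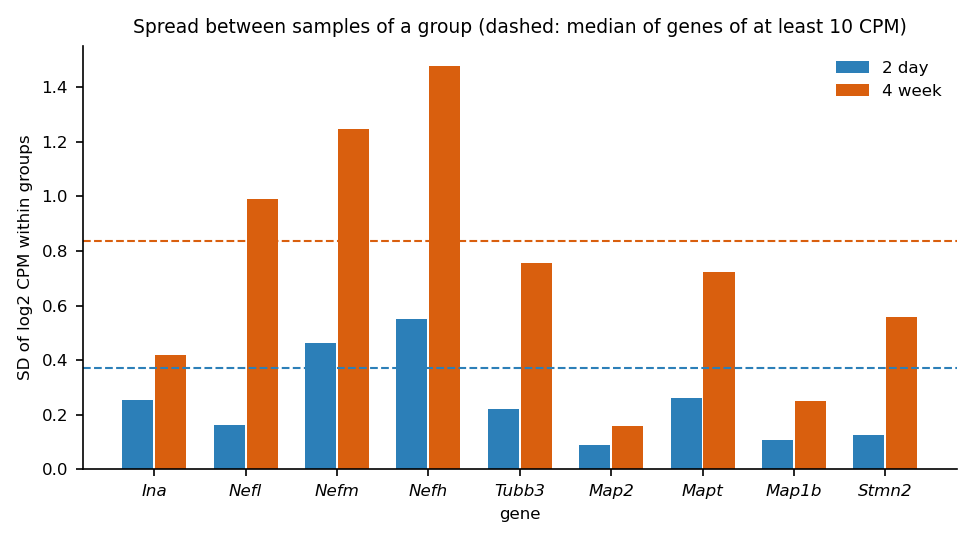
SD of log2 CPM between samples of a group (samples kept) for 9 of the genes at 2 days (blue) and 4 weeks (orange), with dashed lines at the median of genes of at least 10 CPM, 0.37 and 0.84. Nefh, Nefm and Nefl lie above the 4 week line, and Ina, Map2 and Map1b lie well below it. Ina was chosen from the 4 week values, so its place there is a description.

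Neurofilament subunits assemble together, and their transcripts were compared across the 10 samples of each time point. For Nefl and Nefm, Pearson's r of log2 CPM was 0.40 (p = 0.252, permutation test) and Spearman's rho 0.22 (p = 0.538) at 2 days, and r was 0.10 (p = 0.776) and rho 0.14 (p = 0.708) at 4 weeks. Of the 6 relations tested, 3 pairs at 2 time points, the smallest adjusted p was 0.706 for r and 0.972 for rho. Without the 2 samples farthest from the median of the first gene, r was 0.27 for Nefl and Nefm at 2 days and 0.10 at 4 weeks.

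The other pairs did not pass the test either. For Nefl and Nefh r was 0.30 (p = 0.353, permutation test) and rho 0.19 (p = 0.606) at 2 days, and 0.32 (p = 0.351) and 0.32 (p = 0.370) at 4 weeks, with r of -0.18 and 0.52 without the 2 farthest samples. For Nefm and Nefh r was -0.10 (p = 0.781, permutation test) and rho 0.03 (p = 0.945) at 2 days, and 0.19 (p = 0.586) and 0.02 (p = 0.972) at 4 weeks, with r of 0.56 and -0.35 without them. After centring on the treatment groups r lay between -0.07 and 0.49. Nefl and Nefm are neighbours on chromosome 14 whose exons overlap on opposite strands, over 32.8% of the exon bases of Nefl and 19.2% of those of Nefm, so reads there cannot be assigned to one of them without strand.

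In vehicle mice Map2 was lower at 4 weeks than at 2 days by the test, 1 of the 8 members other than Ina and Prph. Map2, the dendritic microtubule-associated protein, stood at 2701, 2352 and 2556 CPM in the 2 day samples and at 1808, 1928 and 1588 CPM in the 4 week samples, and the groups did not overlap. Its log2 difference was -0.46 (SE 0.12, Padj = 0.0993 by edgeR). The level at 4 weeks was below that at 2 days over all samples too, at 1466 to 2074 CPM against 2352 to 3404 CPM, with a log2 difference of -0.58 (SE 0.16, Padj = 0.0625 by edgeR).

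Prph, which encodes peripherin, was at or near 0 counts at 4 weeks. It had 83, 41 and 62 counts in the kept 2 day vehicle samples (19.99, 8.43 and 12.2 CPM) and 0 in the 3 kept 4 week vehicle samples. It passed the filter on low counts through the 2 day samples alone, so its difference between the time points is a description and is left out of the counts of members called. Against the limit that a count of 0 allows, 3 counts per library or at most 1.42 CPM, the lowest of these 2 day samples was at least 5.95-fold higher. Over both treatments and all samples, Prph had 500 counts in the 10 samples at 2 days and 1 count, in Cort sample C07, in the 10 samples at 4 weeks.

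The left out 2 day samples were lower in Prph than the others, at 1.35 and 5.70 CPM with vehicle and 1.97 CPM with Cort, and the first of these is within the limit for a count of 0 at 4 weeks. Markers of magnocellular neurons, the vasopressin and oxytocin cells whose nuclei and axons lie near the ARC, moved with the time point as well. The sum of Avp and Oxt ranged from 21.3 to 402 CPM in the 10 samples of the 2 day mice, whereas it ranged from 0 to 22.0 CPM in those of the 4 week mice. The highest sums at 2 days, 402 CPM in kept Cort C06 and 386 CPM in left out Cort C08, stood beside 24.5 and 1.97 CPM of Prph. The part of these markers in the Prph difference was not tested.

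The call of Map2 stands beside 2.42% of 11621 genes called in this comparison and 1.19% called lower, and beside 2.37% called lower over all samples. By edgeR, Map2 lost its call without 2 day vehicle C02 (Padj = 0.426), C04 (0.308) or C05 (0.396) and without 4 week vehicle C02 (0.1001). Its groups did not overlap over the samples kept or over all samples, as was so for 1 of the 8 members in both cases, beside 14.7% and 5.25% of genes that lay lower without overlap.

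Among the rest, Tubb3 (-0.63, SE 0.37), Mapt (-0.53, SE 0.34), Nefh (-0.82, SE 0.65) and Stmn2 (-0.32, SE 0.28) had negative log2 differences that did not pass the test. Map1b stood at -0.10 (SE 0.10), Nefl at 0.10 (SE 0.38) and Nefm at 0.43 (SE 0.54). Stmn2 passed in 1 setting, without 4 week vehicle C04, where its log2 difference was -0.74 (SE 0.20, Padj = 0.0838 by edgeR). The median of the 8 was -0.39, beside 0.05 over all genes tested.

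General neuron markers lay on the same side of this comparison. All 16 had negative log2 differences with a median of -0.53, and 2 of 16 passed the test, while their sum in the vehicle samples kept ranged from 9397 to 9861 CPM at the early time point and from 6912 to 7046 CPM at the late one. Glial lists stood on both sides. From early to late, the sums were 384 to 452 against 658 to 1048 CPM for the oligodendrocyte list, 85.8 to 163 against 398 to 620 CPM for the tanycyte and ependymal list, and 4622 to 5137 against 3016 to 3182 CPM for the astrocyte list. The part of these differences in the values of Map2 was not tested.

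The wider cytoskeleton was covered by 8 lists with 151 genes. At 2 days 0 of the 146 genes tested had Padj below 0.1 by edgeR, with 2 higher and 3 lower at an unadjusted P below 0.05. Over all genes tested the shares by these measures were 0.065% and 5.97%. DESeq2 gave 0 at Padj below 0.1, with 3 higher and 3 lower at an unadjusted P below 0.05, beside 0.385% and 6.18% of all genes. The lowest P values among genes higher with Cort belonged to Mark3 (log2 fold change 0.73, SE 0.26) and Mark1 (0.64, SE 0.35), kinases of tau and MAP2, and to the tubulin gene Tuba8 (1.11, SE 0.47). Among genes lower with Cort they belonged to Gap43 (-0.34, SE 0.12) and Gprin1 (-0.76, SE 0.30) of the growth cone and to Tppp (-0.32, SE 0.15), a tubulin-binding protein of oligodendrocytes. The adjusted values of these 6 genes were 0.687 to 0.865 by edgeR.

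At 4 weeks 0 of the 139 genes tested had Padj below 0.1 by edgeR, beside 0.0446% of all genes. At an unadjusted P below 0.05 by edgeR 4 were higher and 0 lower, beside 4.91% of all genes in either direction. Genes lower at that level appeared in other settings, with 6 higher and 2 lower over all samples, 7 and 2 without the filter, and 9 and 3 by DESeq2, beside 6.53% of all genes by DESeq2. DESeq2 called 1 of 137 genes at Padj below 0.1, in the higher direction, beside 0.637% of all genes in either direction. This was Dpysl4, a collapsin response mediator gene that stood at 5.23 ± 2.44 CPM with vehicle (SD, n = 3) and 56.1 ± 64.8 CPM with Cort (n = 4), with Padj = 0.889 by edgeR. Camsap2, which caps microtubule minus ends, stood at 271 ± 29.7 CPM with vehicle and 490 ± 80.2 CPM with Cort (Padj = 0.889 by edgeR), and the tau kinase gene Gsk3a at 43.8 ± 8.44 and 98.9 ± 29.2 CPM (Padj = 0.990 by edgeR). Over all samples the groups of Dpysl4, Camsap2 and Gsk3a overlapped. Map7, a microtubule-associated protein, Vim, the vimentin of glia and vessels, and Sptbn4, the spectrin of the axon initial segment, had the lowest P values among genes lower with Cort, with log2 fold changes of -1.59 (SE 0.76), -1.26 (SE 0.61) and -2.42 (SE 1.32).

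By list, 1 of the 13 other tubulin genes tested at 4 weeks had a positive log2 fold change and 12 a negative one, with a median of -0.33 and 0 of 13 at an unadjusted P below 0.05 by edgeR. The other lists were more even, and none held a gene with Padj below 0.1 by edgeR at either time point. The median over all 8 lists together was -0.06 at 2 days and -0.02 at 4 weeks.

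Between the time points in vehicle mice, 9 of 143 genes of the 8 lists had Padj below 0.1 by edgeR, 8 lower and 1 higher at 4 weeks, where 2.42% of all genes were called and 1.19% called lower. The 4 growth cone and stathmin genes among them were Tmsb10 (log2 difference -2.37, SE 0.59), Stmn4 (-1.64, SE 0.31), Marcks (-1.19, SE 0.23) and Cfl1 (-0.80, SE 0.20), 4 of 16 in that list. The others lower were the tubulin folding gene Tbcb (-1.30, SE 0.30), the plus end binding protein gene Mapre3 (-1.12, SE 0.25), the dynein light chain gene Dynll1 (-1.09, SE 0.27) and Cdk5r2 (-1.04, SE 0.25), which encodes an activator of the tau kinase Cdk5. Map7 was higher (1.78, SE 0.39). These 9 genes are named because they passed, so they were chosen after their values were seen, and each passed in 2 or 3 of the 6 fits that left out 1 sample. By DESeq2, 7 higher and 14 lower of 147 genes had Padj below 0.1, so the leaning to lower was less one-sided. The share over all genes by DESeq2 is not given for this comparison.

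The genes most like Ina at 4 weeks were Me2, a mitochondrial malic enzyme gene (r = 0.91), Mob2 (r = 0.91), Fam43a (r = 0.91), Aldoc, the brain aldolase gene (r = 0.90), and Emc7 (r = 0.90). These are the highest of 9447 Pearson correlations of log2 CPM over the 10 samples, which share the treatment groups, so a gene that differs between the groups as Ina does ranks high by that alone. Me2 stood at 13.0 to 57.3 CPM with vehicle and 64.5 to 261 CPM with Cort, and Aldoc at 654 to 829.2 and 879 to 1404 CPM. Mob2 stood at 0.932 to 7.09 CPM with vehicle and 5.54 to 30.1 CPM with Cort, and Fam43a at 0 to 28.7 and 93.1 to 327 CPM. Emc7 stood at 58.7 to 130 and 118 to 230 CPM, so the groups of Mob2 and Emc7 overlapped. The ranking covers 4 weeks only. At 2 days the log2 fold changes with Cort were -0.89 (SE 0.29) for Me2, 0.23 (SE 0.63) for Mob2 and 2.03 (SE 0.55) for Fam43a. Those of Aldoc and Emc7 were 0.34 (SE 0.10) and 0.24 (SE 0.17). The lowest vehicle values of Mob2 and Fam43a lay below the limit of 3 counts. Among the members r with Ina at 4 weeks was highest for Map1b (0.64) and Map2 (0.56) and lowest for Tubb3 (-0.50), and 0.17 to 0.35 for the 3 neurofilament genes.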

How the data were processed

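Laser captured ARC tissue was profiled by single-end RNA-seq. The authors deposited raw counts per gene for 10 samples per time point, mapped to GRCm38 with Rsubread and assigned with featureCounts. Versions and the strand setting are not given in the sources used here. The authors also deposited normalised tables, in which the mean signal over the kept samples (counts divided by size factors) was read only to pair gene identifiers with symbols. The 14 per-sample columns of these tables and the DESeq2 fold changes, test statistics and p-values in them were not used. Columns of the count tables were placed in groups by the study's sample table and carry no replicate numbers of the labels.

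After edgeR's expression filter and TMM scaling, groups were contrasted with edgeR's quasi-likelihood test (2-sided, Benjamini-Hochberg adjustment, Padj below 0.1), using the samples the study kept and no covariate. The comparisons were Cort against vehicle at each time point and, for vehicle mice, 4 weeks against 2 days. Software was R 4.3.3 (edgeR 4.0.16, DESeq2 1.42.0, limma 3.58.1) and Python 3.11.15 (scipy 1.17.1, numpy 2.4.6, pandas 2.3.3, matplotlib 3.10.9). CPM were computed over all samples on 1 TMM scale, and log2 CPM carried a prior count of 2. Correlations had 100000 random pairings. A limit of 3 counts was taken for a count of 0, and it covers counting error alone, the RNA having been amplified. Exon lengths came from GENCODE annotation of GRCm38. No 2 samples of a group held identical values or agreed within sampling noise.

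The members and all lists were chosen with earlier results of these data known. All members are named. Of the other cytoskeletal genes, those with Padj below 0.1 and the 3 with the lowest P in each direction are named per time point. The 5 genes most correlated with Ina among genes with a mean of at least 10 CPM are named as well. Lists were written from general knowledge, and Stmn3 and Gfap stand both in a cytoskeletal and in a cell type list. As alternatives, DESeq2 replaced edgeR, upper quartile or median-ratio scaling replaced TMM, the filter was dropped or raised to a minimum of 10 counts per sample, the left out samples were added back, and 1 sample at a time was removed. The fits were tested on simulated counts with 200 genes changed. Of genes changed by a log2 value of 2, edgeR recovered 70 of 92 at 2 days, 29 of 97 at 4 weeks and 26 of 94 between time points in vehicle mice. Of those changed by 1 it recovered 32 of 108, 1 of 103 and 10 of 106. False calls among the unchanged genes numbered 13, 3 and 7 in the same order.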

Additional observations from a re-analysis of the deposited data

Results flagged for a closer look

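In each group of 5 samples, a sample was marked when its gap to the nearest other sample took up more of the group's range than Dixon's 95% value of 0.71. Of 39 groups examined over the 10 genes, 2 held such a sample, and chance marks about 1 in 20. Tubb3 was marked in 2 day Cort sample C01, at 195 CPM. The other 4 Cort samples held 129 to 144 CPM. Prph was marked in 4 week Cort sample C07, at 0.215 CPM, which is 1 count, where the other 4 Cort samples held 0.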

How the results depend on the processing

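No paired analysis was possible because the count columns carry no replicate numbers of the labels, so the planned replicate block was not run. The Ina log2 fold change at 4 weeks was 1.99 to 2.33 over all 13 alternatives, and the count of other members called at 2 days was 0 in all 13. In vehicle mice Map2 was called lower at 4 weeks in the samples kept. Prph, which passed the filter through the 2 day samples alone, is left out here. Map2 kept its call by DESeq2, with upper quartile scaling, without the filter, with at least 10 counts in every sample and with all samples. It was not called with median-ratio scaling (Padj = 0.109 by edgeR). When each sample was left out, Map2 was called without 4 week vehicle C03 or C04 and in no other of these fits. Stmn2 was called as well without 4 week vehicle C04. The signs of small values turned with the samples. With all samples, the 2 day log2 fold change was -0.13 for Nefl and -0.047 for Map2, and the vehicle log2 difference of Nefl was -0.52. When each sample was left out, the 2 day value of Nefh ran from -0.25 to 0.31 and the vehicle difference of Nefl from -0.55 to 0.41. In the 7 samples kept, r was -0.18 for Nefl and Nefh at 2 days and -0.36 for Nefm and Nefh at 4 weeks. The cause was not tested. Of all results and alternatives, 384 were counted as unchanged and 25 as changed. Being counted as unchanged did not require the same sign. The 4 week log2 fold change of Nefh, -0.05 in the samples kept and 1.00 with all samples, was counted as unchanged. Depth limits the low genes most, as 3 counts stand for 0.499 to 2.796 CPM, and in the simulation a log2 change of 1 was recovered in 1 of 103 genes at 4 weeks.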
